A study of Mus musculus with 27 samples.

Results

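Cidea and Cox6b2 are a pair of mouse genes chosen for probe sets that read low in pancreatic islets during the first day of Myc activation, high after 21 days of it, and lower again within 6 days of stopping the drug. The Cidea set and 2 of the 3 Cox6b2 sets took this course, and the remaining Cox6b2 set did not take it. Of the 2, 1 did not leave the range of the background controls, the top of which was set by 1 control. The members are all probe sets whose single platform symbol is Cidea or Cox6b2, each kept apart, which gave 4 of the 12422 probe sets tested. Cidea has 1 probe set, 99994_at, and Cox6b2 has 3, 97352_f_at, 97351_i_at and 160813_r_at. The pair was picked from these arrays for this course, so the levels of the 4 probe sets are given as a description, with no test, and they support nothing beyond themselves. On GRCm38.p6 the Cidea gene spans chr18:67343564-67367794 and the Cox6b2 gene spans chr7:4751792-4753094.

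The series holds 27 arrays of laser-captured islets, 3 in each of 9 groups. Mice of every group, the untreated one included, carried the MycER and BclXL transgenes, each under an insulin promoter. MycER is a Myc protein fused to an estrogen receptor domain that is active only while 4-hydroxytamoxifen is bound, and BclXL is a survival protein that blocks the apoptosis Myc otherwise sets off in beta cells. One group was untreated. Acute groups were killed 2, 4, 8 or 24 h after 1 injection of 4-hydroxytamoxifen, the sustained group received tamoxifen on each of 21 days, and in the remaining groups 21 days of dosing were followed by 2, 4 or 6 days off drug. The labels name 4-hydroxytamoxifen for the single injection and tamoxifen for the daily course, and they name no group without MycER and none injected without drug, so the effects of drug, injection and Myc cannot be told apart. Age is not given. The insulin promoter acts in beta cells, while a captured islet also holds other endocrine, vascular and stromal cells. Fewer cells of a type and less RNA per cell cannot be told apart in such samples. The labels do not say that the 3 arrays of a group came from separate mice, so p-values measure the spread between these samples, which may be technical.

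CIDEA belongs to the family of CIDE proteins, named for the cell death-inducing DFFA-like effector domain that they share with the nuclease subunits DFFA and DFFB. It sits on lipid droplets and helps them fuse, and it is best known in brown adipocytes, whose mitochondria are rich in UCP1. COX6B2 is a small nuclear-encoded subunit of cytochrome c oxidase, the complex IV of the respiratory chain, and faces the intermembrane space. It is the testis form of the subunit, and COX6B1 is the form of other tissues.

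The start regions of Cox6b2 and of its general counterpart Cox6b1 are shown because these near relatives had different courses on the arrays. Each is the 250 bases before the gene start in RefSeq on GRCm38.p6, minus strand, with CCAAT or its reverse complement ATTGG in capitals. The first lies at chr7:4753095-4753344 and the second at chr7:30626115-30626364.
Cox6b2: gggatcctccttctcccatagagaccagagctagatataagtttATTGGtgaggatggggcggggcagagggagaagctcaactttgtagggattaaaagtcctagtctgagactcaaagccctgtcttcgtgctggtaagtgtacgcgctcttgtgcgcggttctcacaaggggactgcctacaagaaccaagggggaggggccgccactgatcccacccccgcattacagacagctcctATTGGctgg
Cox6b1: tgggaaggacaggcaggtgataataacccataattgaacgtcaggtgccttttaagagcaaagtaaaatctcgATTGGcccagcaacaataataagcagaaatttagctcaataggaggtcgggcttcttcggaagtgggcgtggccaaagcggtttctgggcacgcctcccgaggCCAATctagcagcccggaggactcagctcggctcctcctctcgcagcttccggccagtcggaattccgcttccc
Their GC contents were 54.8% and 54%. CCAAT, searched on both strands, occurred 2 times in each window. In Cox6b2 both matches read ATTGG, starting 206 and 9 bases upstream, and in Cox6b1 1 match read ATTGG, 177 bases upstream, and 1 read CCAAT, 74 bases upstream. Of 32851 RefSeq start windows of this length, 33.8% held that motif. The E box that Myc and Max bind, CACGTG, was in neither window and was in 6.02% of all windows. The wider CANNTG, which overlaps CACGTG, occurred 0 times in the Cox6b2 window and 2 times in that of Cox6b1, against 66.2% of all windows with at least 1. TATAAA was in neither window and was in 12.4% of all, and GGGCGG occurred 1 time in the Cox6b2 window, 0 times in that of Cox6b1 and in 32.7% of all windows. These matches describe letters in a window and are not binding sites.

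The deposited values are log2 levels from RMA, a summary of the probes of a probe set made by the authors. Median levels of an array lay between 6.91 and 7.01, and the lowest correlation between arrays of a group across probe sets was 0.957. Ins2, the insulin gene of all islet beta cells, had group means between 13.64 and 13.83, near the top of the scale, which shows beta cell RNA on the arrays but not how pure the captures were. Cela1, an elastase of the exocrine pancreas, read 13.77, 13.66 and 13.24 at 24 h, so those captures also held acinar RNA. It was not particular to that group. Cela1 read 13.32, 10.99 and 11.42 on the untreated arrays and 9.61, 9.67 and 9.72 at 21 days.

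Cidea was low and level through the first day. On the untreated arrays its log2 level was 6.36, 6.32 and 6.33 (mean 6.34 ± 0.02, SD, n = 3), and at 24 h it was 6.27, 6.57 and 6.27 (6.37 ± 0.17). The means at 2, 4 and 8 h were 6.31 ± 0.15, 6.30 ± 0.19 and 6.39 ± 0.24. All 15 arrays of the first day and the untreated group lay between 6.09 and 6.64, and these 5 groups overlapped. After 21 days the level was 8.43, 8.99 and 9.39 (8.94 ± 0.48), above all 15 of those arrays. The lowest 21 day array exceeded the highest untreated one by 2.07 and the highest 24 h one by 1.86. The difference from untreated islets was 2.60 ± 0.24 (SE), or 6.06-fold, and that from 24 h was 2.57 ± 0.24, or 5.92-fold.

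After the drug was stopped Cidea was lower, and had not come back to the untreated level by 6 days. At 2 days off it was 8.40, 7.38 and 7.60 (7.79 ± 0.54), at 4 days 7.44, 8.22 and 7.92 (7.86 ± 0.39), and at 6 days 6.87, 7.42 and 7.24 (7.18 ± 0.28). The differences from 21 days were -1.14, -1.08 and -1.76, each ± 0.24 (SE), which are 2.21-fold, 2.11-fold and 3.39-fold lower levels. At 2 days off the separation was narrow, since replicate 1 at 8.40 lay only 0.03 below the lowest 21 day array. Every array at 6 days off was below every array at 21 days, by at least 1.01, and above every untreated array, by at least 0.51. Against untreated islets the level at 6 days off was 0.84 ± 0.24 higher, or 1.79-fold. In order of mean level the groups ran from 21 days through 4, 2 and 6 days off to the 5 early groups. The groups at 4 and 2 days off overlapped, as did those at 2 and 6 days.

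Cox6b2 was measured by 3 probe sets that did not show 1 course. The set 97352_f_at had the widest range. By the maker's naming, the endings _f_at, _i_at and _r_at mark probes that are shared between transcripts or were chosen under relaxed rules, so each of the 3 could take up RNA of another gene, and 97352_f_at and 97351_i_at were designed from the same transcript accession. The 97352_f_at level was 6.27, 5.93 and 5.82 in untreated islets (6.01 ± 0.23) and 6.22, 6.33 and 5.97 at 24 h (6.17 ± 0.18). Means at 2, 4 and 8 h were 6.02 ± 0.24, 5.88 ± 0.30 and 5.70 ± 0.13. After 21 days it was 9.02, 9.17 and 9.11 (9.10 ± 0.08), and the 3 arrays were closer together than those of any of the other groups. The difference was 3.09 ± 0.23 (SE) from untreated islets, or 8.54-fold, and 2.93 ± 0.23 from 24 h, or 7.60-fold, with gaps of 2.75 and 2.69 between the nearest arrays.

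Unlike Cidea, 97352_f_at was as high at 2 days off as at 21 days. The arrays read 9.05, 8.93 and 9.53 at 2 days (9.17 ± 0.32), 8.11, 7.89 and 8.09 at 4 days (8.03 ± 0.12), and 7.98, 6.82 and 6.84 at 6 days (7.21 ± 0.66). The 2 day group overlapped the 21 day group, with a difference of 0.07 ± 0.23. At 4 days the difference from 21 days was -1.07, 2.10-fold lower with a gap of 0.91, and at 6 days it was -1.89, 3.70-fold lower with a gap of 1.04. The groups at 4 and 6 days off overlapped through replicate 1 at 6 days. All 12 arrays of the later groups, from 6.82 to 9.53, lay above all 15 early arrays, from 5.56 to 6.33. The 6 day level was still 1.21 ± 0.23 above untreated, or 2.31-fold, with a gap of 0.55.

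The set 97351_i_at moved the same way over a smaller range. It read 5.03, 4.50 and 4.77 in untreated islets (4.77 ± 0.27), 4.89, 4.79 and 4.71 at 24 h (4.80 ± 0.09), and 5.86, 6.08 and 5.99 after 21 days (5.98 ± 0.11). The 21 day arrays were all higher, by 1.21 ± 0.20 (SE) over untreated, or 2.31-fold, and by 1.18 over 24 h, or 2.27-fold. Off drug it read 5.38, 5.98 and 5.73 at 2 days (5.70 ± 0.30), 5.45, 5.37 and 5.48 at 4 days (5.43 ± 0.06), and 6.02, 4.99 and 5.34 at 6 days (5.45 ± 0.52). Only the 4 day group was separate from the 21 day group, at 1.46-fold lower. At 2 and 6 days off the arrays overlapped those at 21 days, with differences of -0.28 and -0.53, and the 6 day arrays also reached down into the untreated range.

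The set 160813_r_at did not take this course. It read 6.22, 7.24 and 6.21 in untreated islets (6.56 ± 0.59), 6.59, 6.85 and 6.36 at 24 h (6.60 ± 0.25), and 6.28, 6.11 and 6.09 after 21 days (6.16 ± 0.10). Its 21 day arrays overlapped the untreated ones, with a difference of -0.40 ± 0.21 (SE), and lay just below those at 24 h, by 0.44 in the mean and by 0.08 between the nearest arrays. Off drug the means were 6.03, 5.79 ± 0.02 and 6.05 ± 0.17. Across the 27 arrays its r with Cidea, 97351_i_at and 97352_f_at was -0.52, -0.64 and -0.54. Over the 15 early arrays alone these were 0.03, -0.61 and 0.18, and over the 12 later ones 0.27, 0.34 and 0.28. The maker's annotation table gives no accession for 160813_r_at, so which stretch of RNA it reads is not known here. Averaging the 3 Cox6b2 probe sets would shrink the 21 day difference to 1.30.

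**Figure D1:**
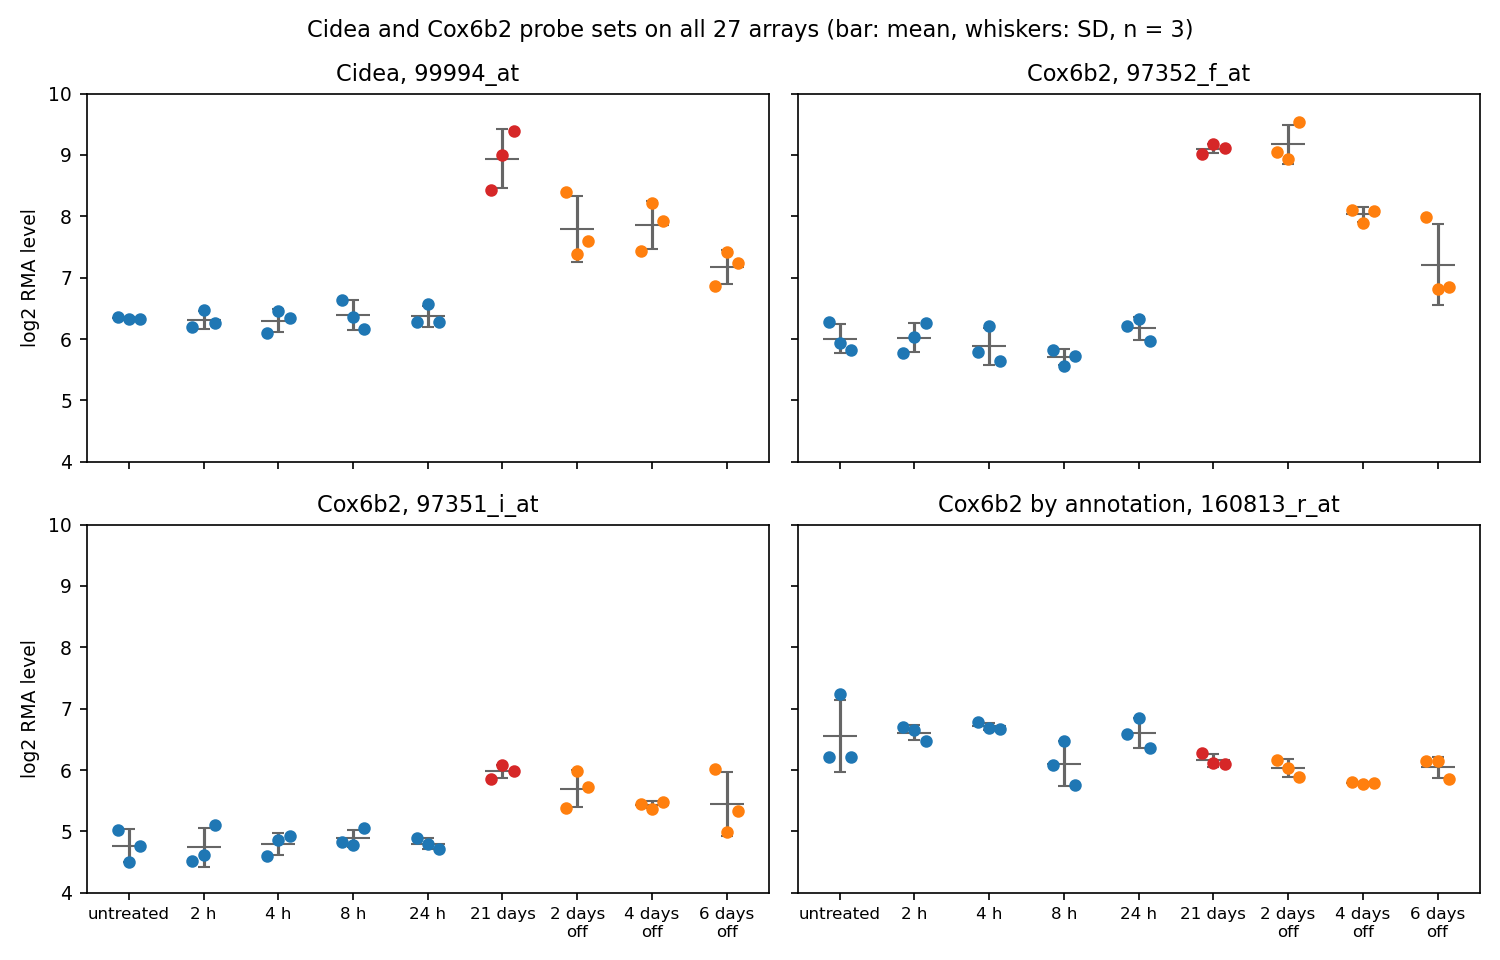
Log2 RMA level of the 4 probe sets on each of the 27 arrays, in 4 panels with the 9 groups along the horizontal axis, points for arrays, and bars and whiskers for mean and SD. Cidea, 97352_f_at and 97351_i_at are low in the first 5 groups, high at 21 days and lower in the mean at 6 days off drug. At 6 days off the 97351_i_at arrays overlap those at 21 days. The set 97352_f_at is as high at 2 days off (9.17) as at 21 days (9.10), and 160813_r_at does not take this course.

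How unusual such separation was can be read against all probe sets. In 16.5% of the 12422 probe sets every 21 day array lay above every untreated array, and in 13.6% every one lay below. Of the members, 3 of 4 lay above and 0 below. Against 24 h the shares were 24.1% above and 16% below, with 3 members above and 1 below. For 4 days off against 21 days 25% of probe sets lay wholly below, as did all 4 members. At 2 days off that share was 15%, with Cidea the 1 member, and at 6 days it was 11%, with Cidea and 97352_f_at. At 6 days off 11.5% of probe sets lay wholly above untreated and 13.3% wholly below, with Cidea and 97352_f_at above and 160813_r_at below. The members were chosen with these contrasts known, so nothing is read from these counts.

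The share of the 21 day log2 rise that remained can be described for 3 probe sets. It takes the untreated level as its zero, which was not shown to stand above background for any of them, so a share is that of the measured range only. At 2 days off a mean of 56.0% remained for Cidea, with arrays from 40.1 to 79.4%, and for 97352_f_at 102%, with arrays from 94.5 to 114%. The 3 arrays of Cidea all lay below the 3 of 97352_f_at, while 97351_i_at, at 76.9% with arrays from 50.7 to 100%, overlapped both. At 4 days the shares were 58.6, 65.4 and 55.1% for Cidea, 97352_f_at and 97351_i_at, and at 6 days they were 32.3, 39.0 and 56.5%. In these later groups the arrays of Cidea and 97352_f_at overlapped, with ranges at 6 days of 20.5 to 41.7% and 26.3 to 63.8%.

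**Figure D2:**
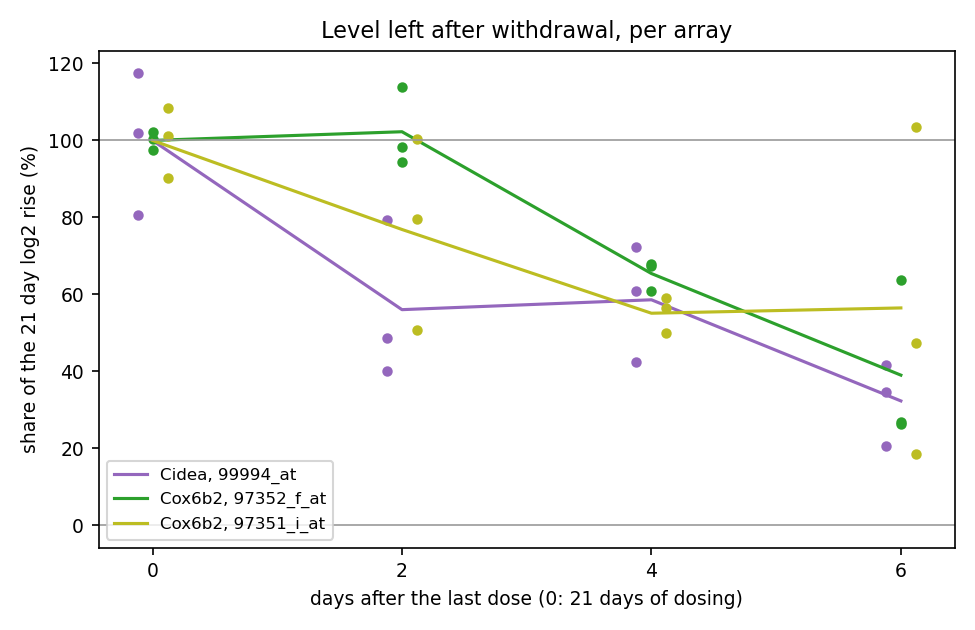
Share of the 21 day log2 difference from untreated islets that was left on each array (vertical axis, %), against days after the last dose, with lines through group means for Cidea, 97352_f_at and 97351_i_at. At 2 days off the 3 Cidea arrays (40.1 to 79.4%) lie below the 3 of 97352_f_at (94.5 to 114%).

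Within a group the genes did not rank the arrays alike. At 6 days off replicate 1 had the highest Cox6b2 levels, 7.98 and 6.02, and the lowest Cidea level, 6.87. The same array had the highest leukocyte marker mean of all arrays, 8.37 over 40 genes, against 7.17 ± 0.17 in untreated islets. Without the 4 leukocyte-rich arrays, of which this is 1, the 6 day differences from untreated were 0.99 for Cidea and 0.82 for 97352_f_at, and that of 97351_i_at fell to 0.40. Cidea and 97352_f_at correlated at r = 0.88 over the 27 arrays and at 0.94 over the 9 group means, but at 0.29 over the 15 early arrays, 0.55 over the 12 later ones and -0.16 for deviations from group means. Deviations of the Cox6b2 sets 97352_f_at and 97351_i_at, which share a source transcript, correlated at 0.67. These coefficients describe arrays that share groups and libraries and carry no test.

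The baseline of both genes was not shown to stand above background. The arrays carry control probe sets for bacterial genes, which mouse RNA does not hold and for which the labels mention no added RNA. Their means, taken apart over the 15 early and the 12 later arrays, lay between 3.57 and 7.20. Only the control PheX-3 stood above 5.74, at 7.20 early and 7.06 later. The untreated levels of Cidea, at 6.34, and of the Cox6b2 sets, at 6.01, 4.77 and 6.56, lay inside that range. Apart from PheX-3, every control lay below 6.34, 6.01 and 6.56, but not below 4.77. If the untreated levels are background, the folds given for 21 days are lower bounds. The levels of Cidea and 97352_f_at at 21 days, 8.94 and 9.10, lay above the whole range of the controls. Those of 97351_i_at and 160813_r_at, 5.98 and 6.16, lay above every control but PheX-3.

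Cidea itself was not tested, and no measured relative of it in the CIDE domain family passed the test. Of 4 measured, Cideb, Cidec, Dffa and Dffb, 0 were called at 21 days against untreated by limma with Benjamini-Hochberg adjustment at 0.05, where 7.93% of 8249 genes were called higher and 8.46% lower; 1 of the 4 had an unadjusted p under 0.05. The levels were 6.33 ± 0.19 and 6.38 ± 0.18 for Cideb, the liver and gut member, and 4.31 ± 0.08 and 4.34 ± 0.12 for Cidec, the white fat member. Dffa, the inhibitor and chaperone of the apoptotic nuclease, was at 10.32 and 9.92 (limma adjusted p = 0.084), and Dffb, the nuclease, at 5.50 and 5.36. In the list of genes that carry out apoptosis 1 of 17 rose and 1 fell. Fadd, an adaptor of death receptors, rose by 0.53, and Aifm1, a mitochondrial flavoprotein that can act in cell death, fell by 1.13 on the log2 scale. The median of the apoptosis list was -0.01, against 0.03 over all genes.

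Of 16 genes of brown fat measured, 2 rose and 1 fell at 21 days, 18.8%, against 7.93% higher and 8.46% lower over all genes, with a median of 0.20. Esrra, a nuclear receptor for mitochondrial genes, rose by 0.73 and Nrip1, a corepressor, by 0.46, while Fabp3, a fatty acid carrier, fell by 0.73 on the log2 scale. A lower Esrra probe set differed by 0.35 (limma adjusted p = 0.167). Ucp1, the uncoupling protein that defines brown fat, was at 5.47 ± 0.29 in untreated islets and 5.26 ± 0.12 at 21 days, and Ppargc1a, the coactivator of mitochondrial genes, was at 3.61 and 3.57. Pparg, the adipocyte regulator, was at 4.41 and 4.76. The Nrip1 call was lost without any of the untreated arrays and without 21 day replicate 1 or 2, and that of Fabp3 without untreated replicate 2 or 21 day replicate 1. Over the settings tried their adjusted p reached 0.242 and 0.109.

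No white adipocyte marker passed the test at 21 days, while 5 early arrays were rich in such markers. On these 5 early arrays Adipoq, the fat hormone adiponectin, stood above 8: replicates 1 and 2 at 2 h read 8.35 and 10.55, replicate 1 at 4 h 8.16, replicate 1 at 8 h 11.02 and replicate 2 at 24 h 9.68. Cidea on those arrays was 6.20, 6.48, 6.09, 6.64 and 6.57, against 6.16 to 6.46 on the other 10 early arrays, so the 3 arrays with the most Adipoq had the highest early Cidea levels. Cidec there was 4.82, 7.28, 5.51, 7.93 and 6.58. On the 21 day arrays, where Cidea was highest, Adipoq lay between 4.56 and 4.82, and its untreated mean was 4.82 ± 0.48. The mean over 13 white adipocyte markers was 6.42 ± 0.08 at 21 days and 6.35 ± 0.02 untreated. Of the 13, limma called 0, where 7.93% of all genes were called higher and 8.46% lower, and 1 had an unadjusted p under 0.05. With 13 genes such a count does not show that adipocyte RNA was unchanged. The 21 day difference of Cidea from untreated was 2.59 with the adipocyte mean as a covariate. That mean was nearly the same in both groups, so the covariate could change the difference little, and nothing is read from it.

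**Figure D3:**
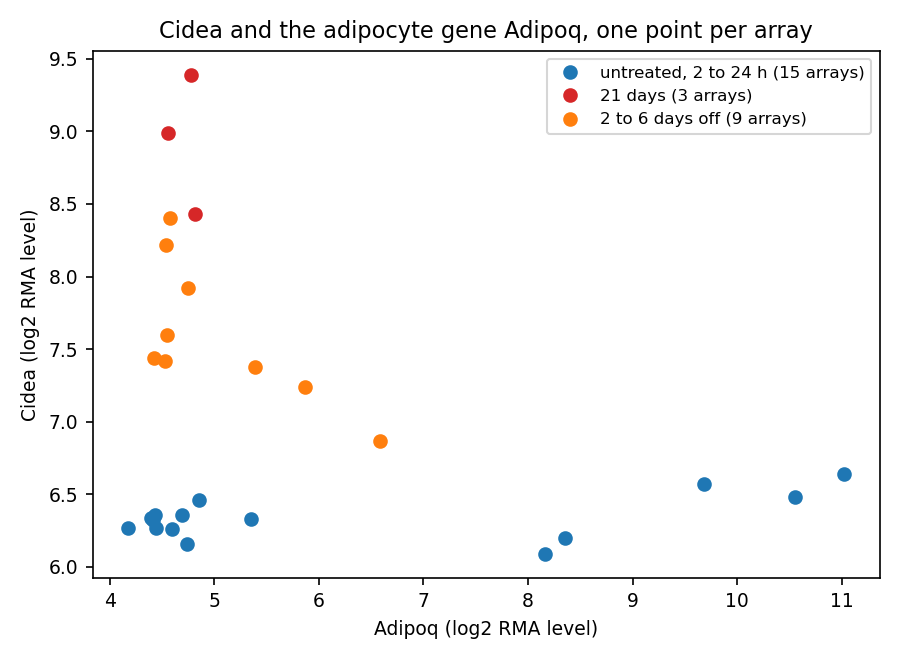
Log2 level of Cidea (vertical axis) against log2 level of Adipoq (horizontal axis) on each of the 27 arrays, coloured by untreated to 24 h, 21 days, and off drug. The 5 arrays with Adipoq above 8 have Cidea between 6.09 and 6.64, and the 21 day arrays have Cidea between 8.43 and 9.39 with Adipoq below 5.

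Among lipid droplet proteins and lipases 2 of 11 fell and 0 rose at 21 days, 18.2% called, with a median of -0.27. Mgll, which splits monoacylglycerol, fell by 0.74 and Aup1, a droplet protein, by 0.68 on the log2 scale. A lower Mgll probe set differed by 0.20 (limma adjusted p = 0.364). Plin2, the droplet coat protein of most cells, was at 8.00 untreated and 7.85 at 21 days. In fatty acid and triglyceride synthesis 3 of 17 rose, Lpin2 by 1.07, Elovl6 by 0.93 and Lpin1 by 0.87; the lipins make diacylglycerol and Elovl6 lengthens fatty acids. Lower probe sets of Lpin2 and Elovl6 differed by 0.55 (limma adjusted p = 0.021) and 0.17 (limma adjusted p = 0.65). In fatty acid oxidation 1 of 19 rose, Acadm, a medium-chain dehydrogenase, by 0.63. Over these lists together 6 of 76 genes rose and 3 fell, 11.8% in all, against 7.93% higher and 8.46% lower over all genes. The Aup1 call was lost without untreated replicate 1 or 2 or 21 day replicate 1 or 2 (limma adjusted p up to 0.2 over the settings tried), and that of Acadm without any 1 of the 6 arrays but 21 day replicate 2 (up to 0.155).

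Of 14 other subunits of complex IV measured, 0 rose and 2 fell at 21 days against untreated, where 7.93% of all genes were called higher and 8.46% lower, and by sign alone 9 were higher and 5 lower, with a median of 0.08. Cox6b1 was at 7.59 ± 0.37 in untreated islets and 7.55 ± 0.09 at 21 days, a difference of -0.04 ± 0.15 (SE, limma adjusted p = 0.891); its probe set 99114_r_at is also of the relaxed kind. Cox6a2, the heart and muscle form of another subunit, fell by 0.68 ± 0.18 (limma adjusted p = 0.0145), and Cox4i1, the general form of the regulatory subunit, fell by 0.56 ± 0.15 (limma adjusted p = 0.0188). The called Cox4i1 probe set ends in _f_at, so it too could take up RNA of another gene. A Cox4i1 probe set of lower mean, with the plain ending _at, differed by -0.05 (limma adjusted p = 0.83). The fall of Cox4i1 was therefore seen on the _f_at set only. Cox6a2 was not called without untreated replicate 2 or 21 day replicate 2, and Cox4i1 was not called without untreated replicate 1 or 21 day replicate 1 or 2, with adjusted p up to 0.0548 and 0.0787. Cox8c, a testis form of a further subunit, was at 9.51 and 9.56.

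**Figure D4:**
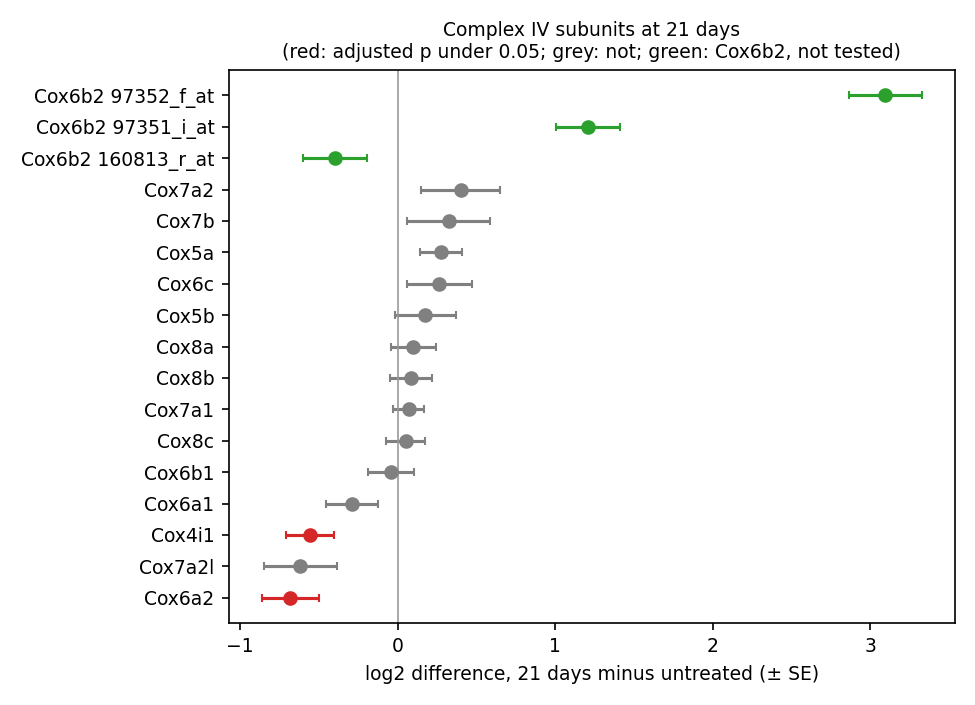
Log2 difference at 21 days against untreated islets (horizontal axis, point and SE) for the 14 other complex IV subunits measured and for the 3 Cox6b2 probe sets (green, not tested). Cox6a2 and Cox4i1 (red) have adjusted p under 0.05 and are lower, Cox4i1 on a probe set ending in _f_at. The Cox6b2 sets stand at 3.09 (97352_f_at), 1.21 (97351_i_at) and -0.40 (160813_r_at).

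Elsewhere in the respiratory chain changes went both ways. Of 13 assembly factors of complex IV and cytochromes c, 2 rose, Lrpprc, which stabilizes mitochondrial mRNA, by 0.93 and Coa6, a copper assembly factor, by 0.91. A lower Coa6 probe set rose by 0.36 (limma adjusted p = 0.0156). Of 46 subunits of complexes I, III and V, 7 rose and 4 fell, among them Ndufa6 with a rise of 1.39, Ndufab1 with 1.11 and Uqcr11 with a fall of 1.18, which belong to complexes I, I and III. Over the 3 lists 15 of 73 genes were called, 20.5%, against all-gene shares of 7.93% higher and 8.46% lower, and without 21 day replicate 2 the number was 9. Coa6 was not called without untreated replicate 1 or 21 day replicate 2 (adjusted p up to 0.0583).

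Of 42 other genes of the testis measured 1 rose and 1 fell at 21 days, 4.76%, against 7.93% of all genes higher and 8.46% lower, with a median of 0.08. Tcp11, a sperm protein, rose by 0.45, a call lost without any 1 of 5 of the 6 arrays, all but untreated replicate 1 (limma adjusted p up to 0.115 over the settings tried). Tnp1, which packs sperm DNA, fell by 0.79 on a probe set of the relaxed kind, and its other probe set differed by 0.16 (limma adjusted p = 0.439). Cyct, the testis cytochrome c, was at 6.56 and 6.63, and Ldhc, the testis lactate dehydrogenase, at 4.54 and 4.50.

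At 4 days off against 21 days, where 4.52% of all genes were called higher and 2.36% lower, 5 of the 76 lipid genes were called (6.58%), 2 higher and 3 lower, and 8 of the 73 respiratory genes (11%), all higher, while Cidea and 97352_f_at were lower. Hadh, an enzyme of fatty acid oxidation, rose by 1.10, Cox16, an assembly factor of complex IV, by 0.99, and Ndufb6, a complex I subunit, by 0.95. These counts rest on single arrays: without 21 day replicate 1, 21 day replicate 2, or 4 day replicate 1, 2 or 3, they became 0, 0, 0, 2 and 1 for lipid genes and 1, 1, 0, 3 and 1 for respiratory genes. At 2 and 6 days off 0 genes of either group were called by limma, where 0.158% and 0.121% of all genes were called higher and 0.0121% and 0.194% lower; at an unadjusted p under 0.05 the lipid counts were 10 and 9 and the respiratory counts 7 and 4.

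In the first day, when the Cidea and 97352_f_at arrays overlapped the untreated ones, most calls among lipid and respiratory genes were of respiratory genes at 24 h. Lipid genes called were 0, 1, 2 and 1 at 2, 4, 8 and 24 h and respiratory genes 0, 0, 0 and 7 of 73 (9.59% at 24 h), where 0.412, 0.57, 1.15 and 1.37% of all genes were called higher and 0.0727, 0.339, 0.764 and 0.206% lower. At an unadjusted p under 0.05, 11, 12, 11 and 9 lipid genes and 3, 1, 9 and 27 respiratory genes passed at 2, 4, 8 and 24 h, and the respiratory median at 24 h was 0.32. Elovl6 rose by 0.86 at 4 h and by 0.82 at 8 h, and Fasn, the fatty acid synthase, by 0.88 at 8 h. At 24 h Atp5o, a subunit of ATP synthase, rose by 1.01 and Ndufa6 by 1.18, while Cox6a2 fell by 0.74 on the log2 scale. The 24 h group also had the highest mean of acinar markers, 11.05 against 8.90 untreated. The part of acinar RNA in these calls was not tested.

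At 6 days off against untreated, when Cidea and 97352_f_at were still higher, 19 of 73 respiratory genes and 7 of 76 lipid genes were called, against 5.54% of all genes called higher and 7.95% lower. Ndufab1 was 1.40 higher, Ndufa9, also of complex I, 1.15 higher and Uqcr11 1.06 lower on the log2 scale. Cox6a2 and the Cox4i1 probe set ending in _f_at also remained lower, with differences of -0.71 and -0.58. The 2 comparisons with untreated islets share those 3 arrays.

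Contents of the captured tissue and RNA quality also differed between groups. The mean of 12 beta cell markers was 10.22 untreated and 9.63 at 21 days, that of 15 fibroblast markers 7.89 and 8.37, and that of 15 acinar markers 8.90 ± 1.25 and 7.56 ± 0.28, with 11.05 at 24 h. The 3′ minus 5′ signal of the Gapdh control, which grows as RNA is shortened, was 4.75 ± 1.02 untreated, 3.78 ± 0.11 at 24 h and 4.83 ± 0.08 at 21 days, and 3.54 ± 0.65, 3.83 ± 0.32 and 3.92 ± 0.47 off drug. With this control as a covariate the 21 day difference from untreated was 2.59 for Cidea and 3.09 for 97352_f_at. The control had nearly the same mean in these 2 groups, 4.83 and 4.75, so it could change that difference little, and nothing is read from it. With the same covariate the difference at 6 days off from 21 days was -1.61 for Cidea and -1.90 for 97352_f_at. With acinar and leukocyte means as covariates the 21 day difference was 2.50 and 3.22. The part of the fibroblast and beta cell markers in the result was not tested.

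Genes with the most similar course were named as the 5 probe sets of highest Pearson r over the 27 arrays, among those of 1 symbol whose group means spanned at least 1 log2 unit. For Cidea these were Dlk1 at 0.94, D430019H16Rik at 0.93, Jun at 0.90, Slc9b2 at 0.89 and Pcmt1 at 0.89. Dlk1 encodes a membrane protein that holds back fat cell formation, and Jun a transcription factor of the AP-1 complex. Dlk1, D430019H16Rik and Jun were also among the 5 for 97352_f_at, at 0.91, 0.92 and 0.91, with the Cox6b2 set 97351_i_at and with Kdm3a, a histone demethylase, both at 0.90. Over the 15 early arrays alone the coefficients of the 5 genes with Cidea lay between 0.19 and 0.48, and over the 12 later arrays between 0.66 and 0.85. With 97352_f_at, Dlk1, D430019H16Rik and Jun had early coefficients of 0.11, -0.04 and 0.57 and later ones of 0.65, 0.61 and 0.80. For deviations from group means their coefficients with 97352_f_at were -0.48, -0.13 and 0.07, and with Cidea 0.48, 0.49 and 0.41. By r over the 9 group means, 1 of the 5 for Cidea and 2 of the 5 for 97352_f_at were named again.

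The courses of these genes differed in detail. Dlk1 was at 7.61 untreated and already 8.44 at 24 h, reached 11.31 at 21 days, and was 10.62, 10.25 and 9.33 at 2, 4 and 6 days off. D430019H16Rik went from 6.98 to 9.72 and was 8.63 at 6 days off. Jun went from 6.83 to 7.83 and was 7.66 and 7.36 at 2 and 4 days off.

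**Figure D5:**
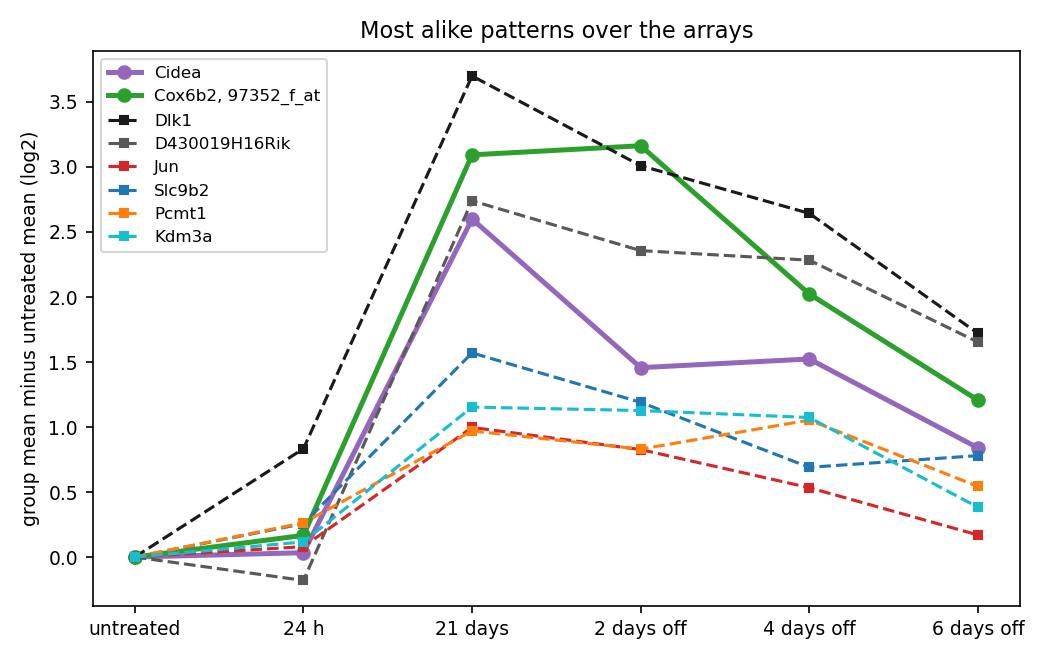
Group means of Cidea, Cox6b2 (97352_f_at), Dlk1, D430019H16Rik, Jun, Slc9b2, Pcmt1 and Kdm3a in 6 of the groups (horizontal axis), as log2 difference from the untreated mean (vertical axis). Dlk1 was at 7.61 untreated, 8.44 at 24 h and 11.31 at 21 days, while Cidea was at 6.34, 6.37 and 8.94.

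For 97351_i_at the 5 were 97352_f_at at 0.90, Ccng2 at 0.90, and Cdca7l, D430019H16Rik and Fancg at 0.84. Ccng2 encodes an unusual cyclin that restrains division, and Fancg a protein of DNA crosslink repair. For 160813_r_at the 5 were probe sets of Sec14l2 and Tnp1 at 0.87, Syne4 and 1110032A03Rik at 0.85 and Mrm3 at 0.84. Of these 5, 4 have names ending in _r_at, like 160813_r_at itself, against 2.68% of the 1906 candidates. The 4 were 96759_r_at, 160533_r_at, 161857_r_at and 104314_r_at.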

How the data were processed

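RNA of laser-captured islets was amplified in 2 rounds, biotin-labelled and hybridised to 27 Affymetrix arrays, per the labels. The deposited log2 levels were made by the authors with RMA, as the submitters' processing notes name it; neither version nor settings were given in the sources used here. They were used without further scaling, and 66 control probe sets were left out, which left 12422 for testing. RMA as a method equalises array distributions and compresses differences of dim probe sets.

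Groups came from the labels. Differences and SE came from limma 3.58.1 in R 4.3.3 (lmFit and eBayes, 9 group means, 18 residual degrees of freedom, two-sided), with Benjamini-Hochberg adjustment over all 12422 probe sets of a comparison. The method was tested on simulated data. A gene of a list was represented by its probe set of highest mean; 322 of 459 list symbols matched, over 18 lists. The number of arrays limits the precision.

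The members, lists and tests were chosen with earlier results of these data known. Genes named are the members, the 5 most alike probe sets, up to 3 called genes of largest change per list and comparison, and a short panel; not all are printed. Promoter windows are RefSeq's for GRCm38.p6, and the collection at hand held no window for Cidea.

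Other settings were median centring, quantile normalization, a filter on the lowest 40% of means, array weights, the 6 arrays alone, a replicate block, averaging the probe sets of a gene, marker and Gapdh covariates, a minimum change of 2-fold, and fits that drop each array in turn. Replicate numbers did not pair samples: deviations of same-numbered arrays correlated at 0.02 on average (-0.46 to 0.51).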

Additional observations from a re-analysis of the deposited data

How the results depend on the processing

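The differences of Cidea, 97352_f_at and 97351_i_at kept their sign in every setting tried, except 97352_f_at at 2 days off against 21 days, whose 0.07 ranged from -0.11 to 0.19 without single arrays. The replicate block left each member difference as it was (2.60 for Cidea and 3.09 for 97352_f_at at 21 days) and gave 10, 5, 19, 11, 2 and 2 calls where the text has 9, 5, 15, 8, 2 and 2; the numbers do not pair the arrays. The mean of the 3 Cox6b2 probe sets gave 1.30, 1.22, -0.66, -0.84 and 0.46 for 21 days against untreated and 24 h, 4 and 6 days off against 21 days, and 6 days off against untreated. With acinar and leukocyte covariates 97351_i_at differed by 1.51 from untreated and 1.98 from 24 h at 21 days, 97352_f_at by 3.26 and 160813_r_at by -0.90 from 24 h; with the Gapdh covariate 160813_r_at differed by -0.22 there, and under quantile normalization 97351_i_at by -0.44 at 4 days off. With a 2-fold minimum the calls at 21 days were 1 lipid, 3 respiratory, 0 testis and 1 apoptosis gene, and at 4 days off 1 lipid and 0 respiratory. At 4 days off lipid and respiratory calls were 3 and 5 with the Gapdh covariate, 15 and 25 with array weights and 1 and 3 without the 5 Adipoq-rich arrays, a setting chosen after seeing the data, as was leaving out the 4 leukocyte-rich arrays; quantile normalization gave 4 respiratory calls. The testis list had 4 calls with array weights and 1 with the 6 arrays alone. Without single arrays the lipid calls ranged from 6 to 9 at 21 days and 0 to 6 at 4 days off, the respiratory calls from 9 to 15 and 0 to 10, the testis calls from 1 to 3 and the apoptosis calls from 2 to 3. By r over 9 group means 2 of 5 alike probe sets were named again for 97351_i_at, 2 for 97352_f_at and 1 for Cidea. Of 20 named list genes 12 kept their call without any 1 of the 6 arrays. Beyond fewer arrays and the fold minimum itself, the cause was not tested. Signal over background limits the untreated levels of both genes.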
